A study of Mus musculus with 4 samples.

Results

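The 7 costimulatory molecules of T cells, Tnfrsf4 (OX40), Tnfrsf9 (4-1BB), Tnfrsf18 (GITR), Icos, Cd28, Cd27 and Cd40lg (CD40 ligand), were followed through the leukocytes of mouse melanomas. The members were the rows of the gene list with these symbols, 7 of 27998 genes, chosen with earlier results of these data known. Droplet-based 3′ single-cell RNA-seq (10x, v2 chemistry) had been run on CD45+ cells, enriched on an Optiprep gradient and with magnetic beads, from tumours of B16-F10, a melanoma line of C57BL/6 origin. C57BL/6 mice had received tumour cells in matrigel, either Adar1-null (libraries S1 and S2) or control cells (S3 and S4), and the tumours were taken on day 14 and digested with collagenase P and DNase I. The design text speaks of 2 tumours per genotype. Nothing ties the libraries to separate animals, so the tests measure the spread between these 4 libraries. How the gene was inactivated, and whether the Adar1-null line was 1 clone, is not stated in the labels. Adar1, encoded by Adar, edits double-stranded RNA and was absent by label from the implanted tumour cells only. The T and NK cells described here are cells of the host, and Adar in the CD8 T cells lay between 10.5 and 15.1 CPM in all 4 libraries (UMI counts of a group of cells scaled to a common total), which checks nothing about the tumour cells.

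A T cell needs a costimulatory signal besides that of its antigen receptor. CD28 gives that signal on first contact with CD80 or CD86, and ICOS, a receptor related to CD28, is induced later and binds ICOS ligand. OX40, 4-1BB, GITR and CD27 belong to the tumour necrosis factor (TNF) receptor superfamily, bind ligands of the TNF family on antigen-presenting cells and signal through TRAF adaptors to NF-κB. OX40, 4-1BB and GITR are induced by activation and are abundant on regulatory T cells in tumours, CD27 is carried by resting T cells and by part of the NK cells, and CD40 ligand is a TNF-family ligand that activated helper T cells show to CD40 on dendritic cells and B cells.

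The genes fall into neighbourhoods. In the GENCODE M21 annotation of GRCm38, the assembly also called mm10, Tnfrsf4 (chr4:156013843-156016612, plus strand) and Tnfrsf18 (chr4:156026164-156028895, plus strand) lie 9.6 kb apart with no protein-coding gene between them. Tnfrsf9 (chr4:150914562-150946102, plus strand) lies 5067.7 kb before Tnfrsf4 on the same chromosome and overlaps Camta1 on the opposite strand. Cd28 (chr1:60716800-60773359, plus strand) and Icos (chr1:60977927-61000320, plus strand) are 204.6 kb apart with 1 coding gene between them, Ctla4, which encodes the inhibitory receptor of the same family. Cd27 (chr6:125232622-125237010, minus strand) overlaps Vamp1 on the opposite strand, Tnfrsf18 overlaps the antisense gene Gm16008, and Cd40lg lies on the X chromosome (chrX:57212143-57224042, plus strand). Icos overlaps Gm37039 and Cd27 overlaps Mir8113 on the same strand. Whether the authors' counting used the strand is not stated in the labels, and strand would not separate the last pairs, so UMIs of the overlapping genes may not be fully told apart.

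RefSeq promoter sequences (GRCm38.p6) were at hand for 4 of the 7 members, with 5 start sites, and were searched on both strands in the 250 bases before each start. The 3 motifs were the NF-κB consensus, AP-1 (TGANTCA) and the NFAT core (GGAAA), since these factors act downstream of antigen receptor and costimulation. Tnfrsf9 was the only one of the 4 with NF-κB and AP-1 matches. Both were at its second start, and the sequences of these sites and of the promoters of the other members are shown 5′ to 3′ on the gene's strand, with matches in capitals and exonic stretches left out.
Tnfrsf9 second start, NF-κB site, chr4:150927947-150927976, plus strand: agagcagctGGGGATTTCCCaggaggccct
Tnfrsf9 second start, AP-1 site, chr4:150927969-150927998, plus strand: gaggccctgctcagtTGAGTCAcaggtcct
Tnfrsf4, chr4:156013611-156013694, plus strand: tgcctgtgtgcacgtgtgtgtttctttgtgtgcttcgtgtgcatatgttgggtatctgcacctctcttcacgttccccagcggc
Tnfrsf18, chr4:156026072-156026163, plus strand: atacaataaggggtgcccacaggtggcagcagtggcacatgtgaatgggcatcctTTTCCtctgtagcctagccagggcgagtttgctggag
Cd27, chr6:125237028-125237277, minus strand: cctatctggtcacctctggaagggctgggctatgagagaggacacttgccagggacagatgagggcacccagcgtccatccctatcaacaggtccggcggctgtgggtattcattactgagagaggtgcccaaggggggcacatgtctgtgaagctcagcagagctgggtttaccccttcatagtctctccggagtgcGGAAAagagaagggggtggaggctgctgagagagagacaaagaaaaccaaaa
In the first of these windows the capitals are 2 overlapping NF-κB matches, 43 and 42 bases before the start, and they hold an NFAT core on the opposite strand. The AP-1 match began 15 bases before the start. Tnfrsf4, Tnfrsf18, Cd27 and the first start of Tnfrsf9 had no NF-κB or AP-1 match in their windows, and they had 1, 2, 1 and 2 NFAT cores. Of 32851 RefSeq promoters of the same length, 5.93% held the NF-κB consensus, 6.75% the AP-1 motif and 55.6% the NFAT core. A match describes these letters only and is no evidence of binding.

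The deposited matrix held 8838 barcodes, of which 8569 were kept, 1939, 1936, 1945 and 2749 in S1 to S4, with medians of 7618 to 8788 unique molecular identifiers (UMIs, counted molecules) per cell. A pair of libraries shared between 3 and 10 barcode sequences. CD8 T cells were gated by Cd3 and Cd8 UMIs without Foxp3 or Cd4, regulatory T cells by Cd3 and Foxp3 without Cd8, and NK cells by at least 2 UMIs of Ncr1, Klrb1c, Eomes, Klra8 and Klre1 without Cd3, so no member took part in a gate. The CD8 gate held 279, 330, 248 and 227 cells in S1 to S4, the regulatory T gate 22, 18, 9 and 9, and the NK gate 15, 30, 32 and 11. The regulatory T cells carried the checking markers Ikzf2 (832 to 1034 CPM), Ctla4 (597 to 765 CPM) and Il2ra (109 to 212 CPM) in every library. Cd4, which the gate did not require, was detected in only 22.2% to 50% of a library's regulatory T cells. Nkg7, abundant in the CD8 gate (2416 to 3333 CPM), was also present in regulatory T cells (843 to 1990 CPM), while Prf1 had no UMI in them. The NK cells had Gzma between 2005 and 4674 CPM, against 14.9 to 94.9 CPM in the CD8 gate. They had no UMI of Itga2, the DX5 antigen used to mark NK cells in this strain. Their Nkg7 (951 to 2790 CPM) and Prf1 (9.24 to 93.7 CPM) overlapped the CD8 gate, where Prf1 was at 26.1 to 79.6 CPM. The NK gate markers summed to 1019 to 1558 CPM in NK cells. In CD8 T cells they summed to 170 to 229 CPM and were found in 59.1% to 73.8% of a library's cells. Markers of other cells were present: the 8 monocyte and macrophage markers summed to 199 to 387 CPM in CD8, 186 to 1920 in regulatory T and 156 to 508 in NK cells, with the highest regulatory T value in S2. The 5 melanoma markers summed to 136 to 607 CPM in CD8, 26.1 to 59.2 in regulatory T and 17.9 to 1521 in NK cells. In regulatory T cells the dendritic cell markers summed to 13.3 to 326 CPM, highest in S4. The part of these cells in the results was not tested, apart from the tighter limit on melanoma markers described in the closing section.

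Messenger RNA of 6 members lay mostly in T cells. The CD8 gate, with 12.7% of all kept cells, held between 49.4% (Tnfrsf4) and 72.2% (Cd27) of all UMIs of these 6 genes. Tnfrsf4 had the largest share in the regulatory T gate, 11.9% of its UMIs in 58 of 8569 cells. In the macrophage gate, which held 4345 cells and should lack these receptors, the mean over libraries was 0.581 ± 0.215 CPM for Icos (SD, n = 4) and 6.46 ± 3.24 CPM for Tnfrsf9, the lowest and the highest of the 6. The map of pooled CPM by gate shows the same concentration, with a further signal of 3 TNF receptor genes in migratory dendritic cells that is described in the closing section.

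**Figure D1:**
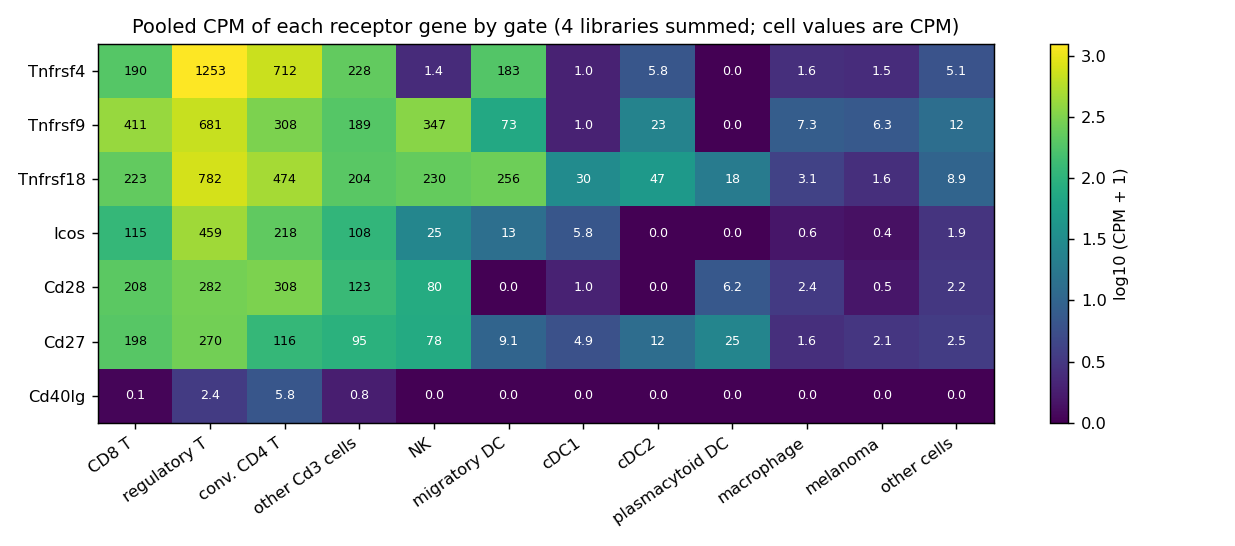
Pooled CPM of each receptor gene (rows) in each gate (columns), with the UMIs of the 4 libraries summed and the colour on a log10 (CPM + 1) scale. Tnfrsf4 reached 1253 CPM in regulatory T cells and 1.41 CPM in NK cells, and Cd40lg stayed at or under 5.81 CPM in every gate.

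Cd40lg was nearly undetected. All 8569 kept cells held 8 of its UMIs, in 7 cells: 1 UMI in a CD8 T cell, 1 in a regulatory T cell, 2 in conventional CD4 T cells (Cd3 and Cd4 without Foxp3 or Cd8) and 4 in other Cd3-positive cells. None of the 88 NK cells had one, which allows a share of cells with a UMI of up to 3.41%, taking 3 cells as the limit of a count of 0. With 42 conventional CD4 T cells in all, the gate where the gene is known to act was small. Cd40lg was under the filter on low counts, and the counts of members below are over the other 6. With no filter it was fitted and not called in any comparison.

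Regulatory T cells had the highest level of each of the 6 receptors among the CD8, regulatory T and NK gates in every library, and 3 of the 6 passed the test against CD8 T cells. Tnfrsf4 was 6.46-fold, Icos 3.80-fold and Tnfrsf18 3.39-fold higher. Tnfrsf9, Cd28 and Cd27 were also higher in all 4 libraries, by less, and did not pass. Of all 2798 genes tested in this comparison, 10.3% were called higher in regulatory T cells. The gates were compared within libraries on summed UMIs with edgeR (quasi-likelihood test, p-values adjusted by Benjamini-Hochberg over all genes tested; a call below means an adjusted p at or under 0.05), and log2 changes are given ± SE.

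**Figure D2:**
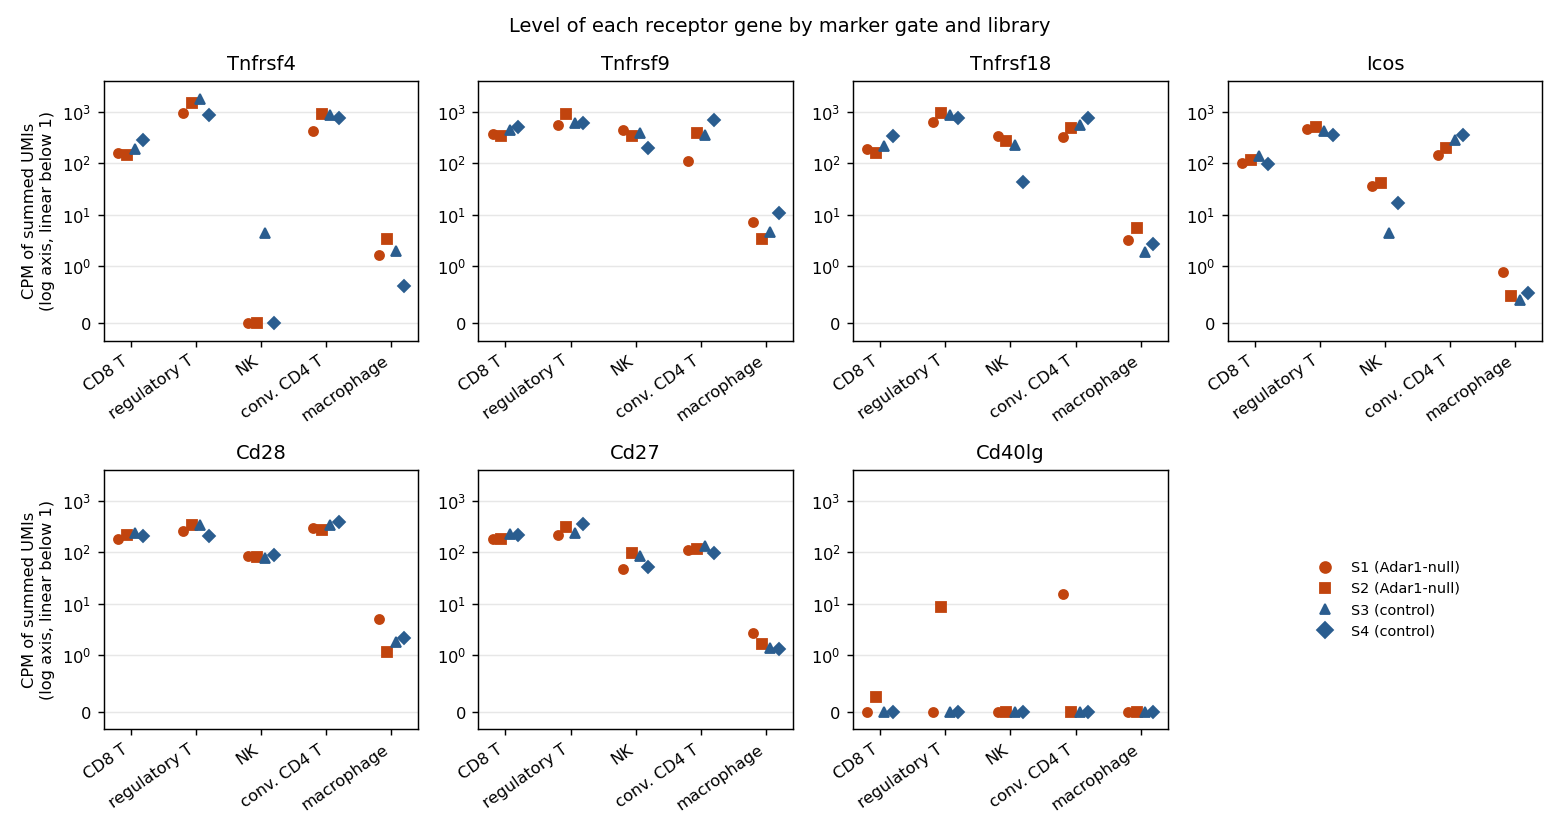
CPM of summed UMIs for each gene in 5 gates (log axis, linear below 1), 1 point per library, with S1 and S2 from Adar1-null and S3 and S4 from control tumours. The 4 regulatory T values of Tnfrsf4 (858 to 1803 CPM) lie above its 4 CD8 values (148 to 280 CPM), and its NK values lie at 0 apart from 1 library.

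Tnfrsf4, whose product OX40 sustains activated T cells, measured 157, 148, 194 and 280 CPM in the CD8 T cells of S1 to S4 and 960, 1521, 1803 and 858 CPM in the regulatory T cells. The ranges did not overlap, and within a library the ratio ran from 3.06 in S4 to 10.3 in S2, for a log2 change of 2.69 ± 0.25 (adjusted p = 5.79e-06). Conventional CD4 T cells lay between the gates, at 422, 921, 884 and 769 CPM, above the CD8 T cells and below the regulatory T cells in 4 of 4 libraries, from only 16, 11, 10 and 5 cells.

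Tnfrsf18, encoding GITR, measured 194, 163, 221 and 342 CPM in CD8 T cells and 627, 938, 875 and 769 CPM in regulatory T cells. Every regulatory T value lay above every CD8 value. The log2 change of 1.76 ± 0.45 passed the test (adjusted p = 0.0347), but the call was lost in 6 of 13 alternatives: without S1 (adjusted p = 0.0948), without S2 (0.164), without S3 (0.135), with no low-count filter (0.185), with no exclusion of doublets and foreign markers (0.0512) and with the broad regulatory T gate described further on.

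Tnfrsf9, the 4-1BB gene, measured 371, 347, 443 and 511 CPM in CD8 T cells and 570, 912, 610 and 621 CPM in regulatory T cells. The regulatory T values were again all above the CD8 values, but the gap was narrow except in S2, where monocyte and macrophage markers were also highest. The log2 change was 0.66 ± 0.24 (adjusted p = 0.0729). It was called in 4 of 13 alternatives, among them without S4 (0.81, adjusted p = 0.0121), and ranged from 0.16 with the broad regulatory T gate to 0.87 with stricter gates. Without S2 it was 0.39 (adjusted p = 0.326).

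Icos measured 102, 117, 141 and 98.4 CPM in CD8 T cells and 474, 521, 424 and 355 CPM in regulatory T cells. The ranges stood far apart, and within a library the ratio was 3.01 to 4.66. The log2 change was 1.93 ± 0.20 (adjusted p = 9.63e-07), and Icos and Tnfrsf4 were called in 13 of 13 alternatives, of which the stricter gates left 1 regulatory T cell in S4. Cd28, the receptor of first contact, showed overlapping ranges, with 183, 211, 231 and 205 CPM in CD8 and 256, 330, 332 and 207 CPM in regulatory T cells. Its log2 change was 0.41 ± 0.17 (adjusted p = 0.114, interval 0.06 to 0.76).

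Cd27, the TNF receptor of resting cells, measured 178, 181, 220 and 217 CPM in CD8 and 218, 313, 239 and 355 CPM in regulatory T cells. The ranges overlapped slightly, since the lowest regulatory T value was under the highest CD8 value, and the log2 change was 0.44 ± 0.19 (adjusted p = 0.122). In conventional CD4 T cells Cd27 was at 110, 116, 133 and 96.1 CPM, below the CD8 T cells of the same library in 4 of 4 cases, while Cd28 there was above them in 4 of 4. These 2 comparisons with conventional CD4 T cells, of which S4 held 5, were not tested.

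Genes of the same pathways, from lists chosen with earlier results of these data known, were read beside the members. Of 6 tested other costimulatory or adhesion receptors, 4 were higher in regulatory T cells and none lower: Cd5 (log2 change 2.08) and Cd6 (1.33), scavenger-type receptors that tune antigen receptor signals, Cd2 (1.09), an adhesion receptor, and Tnfrsf1b (0.88), the second TNF receptor. Of 5 tested inhibitory receptors, Ctla4 was higher (2.26) and Pdcd1 (-2.17), Cd160 (-5.28) and Havcr2 (-1.53) were lower. Cd160 had UMIs in the regulatory T cells of S4 only (14.8 CPM), so the size of its change is uncertain. Of 14 tested signalling genes, 5 were higher and none lower: Nfkbia (1.01), Nfkb1 (1.15), Birc2 (0.97), Traf1 (0.84) and Grb2 (0.90), of which the first 4 belong to the TRAF and NF-κB pathway. The list medians were 0.98, -1.53 and 0.78, against -0.02 over all genes tested. None of the 8 ligand genes was abundant enough to be tested.

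In NK cells 4 of the 6 receptors were lower than in CD8 T cells, and the other 2 were called in neither direction. Tnfrsf4, Icos, Cd28 and Cd27 were the 4 called lower, where 4.47% of all genes tested were called lower, and each of these 4 calls stood in 13 of 13 alternatives. Tnfrsf9 and Tnfrsf18 were not called in any of the 13.

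Tnfrsf4 had a single UMI among the 708889 UMIs of the NK gate, in S3, and was at 0 in S1, S2 and S4. The 1084 CD8 T cells had 2147 of its UMIs among 11323918, a ratio of 134 with an exact Poisson interval of 24.1 to 5311, and the regulatory T cells had 519 among 414319, a ratio of 888 with an interval of 159 to 35141. These intervals cover counting error only. The single NK UMI amounts to 1.41 CPM of the gate, beside a mean over the macrophage gate of 1.91 ± 1.12 CPM (SD, n = 4). Its neighbour on chromosome 4, Tnfrsf18, was at 342, 268, 228 and 43.2 CPM in the same NK cells. The S4 value rested on 5 UMIs in 11 cells and lay below the CD8 T cells of that library, while the other 3 values lay above theirs. The log2 change of Tnfrsf18 between NK and CD8 T cells was 0.02 ± 0.48 (adjusted p = 0.992). Its interval from -0.94 to 0.99 leaves differences in either direction undecided.

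Tnfrsf9 measured 453, 337, 384 and 199 CPM in NK cells. It was higher than in CD8 T cells in S1 and lower in the other 3 libraries, and the log2 change was -0.24 ± 0.24 (adjusted p = 0.634). Icos, at 37.0, 42.2, 4.46 and 17.3 CPM from 18 UMIs, was lower in every library (log2 change -2.19 ± 0.34, adjusted p = 0.000178). Cd28 varied least among the libraries, at 83.2, 80.5, 75.9 and 86.4 CPM, all well below the lowest CD8 value (log2 change -1.35 ± 0.20, adjusted p = 0.000117).

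Cd27, which marks the less differentiated NK cells, measured 46.2, 95.8, 84.8 and 51.9 CPM in NK cells. All 4 values were below those of CD8 T cells (log2 change -1.37 ± 0.22, adjusted p = 0.000268). Among the pathway lists, Cd5 and Cd6 had no UMI in any NK library and Cd2 was lower (-1.10). Thus 3 of 6 tested other receptors were lower, and Cd244, a receptor found on NK cells, was higher (1.78). Of 5 tested inhibitory receptors 4 were lower, Pdcd1 (-6.56), Lag3 (-3.24), Havcr2 (-3.78) and Ctla4 (-1.61), and of 14 signalling genes only Pik3r1 (1.31) was called, higher. In NK cells Pdcd1 had UMIs in S2 only (7.66 CPM), and Havcr2 in S1 and S2 only (9.24 and 11.5 CPM). The sizes of both changes therefore rest on few UMIs and are uncertain.

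Set against NK cells, regulatory T cells had 5 of 6 members called higher, where 9.36% of all genes tested were. Icos was 17.3-fold (log2 change 4.11 ± 0.33), Cd27 3.52-fold (1.81 ± 0.26) and Cd28 3.38-fold (1.76 ± 0.23) higher, with Tnfrsf4 near absent from NK cells. Tnfrsf9 was 1.87-fold higher (0.90 ± 0.26, adjusted p = 0.029), a call that stood in 9 of 13 alternatives. It was lost without S2 (0.0953), without S3 (0.0557), with no exclusion of doublets and foreign markers and with the broad regulatory T gate. Tnfrsf18 was higher in 4 of 4 libraries (1.74 ± 0.50, adjusted p = 0.0552) and was called without S4 (1.48, adjusted p = 0.000303). The order from high to low was therefore regulatory T, CD8, NK for Tnfrsf4 and Icos with each step called, and for Cd28 and Cd27 with the first step not called. For Tnfrsf9 and Tnfrsf18 the CD8 and NK gates were neighbours that did not differ beyond their spread, and for Tnfrsf9 the step to regulatory T cells was not called either. These 3 comparisons share gates, so they are not independent of each other.

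**Figure D3:**
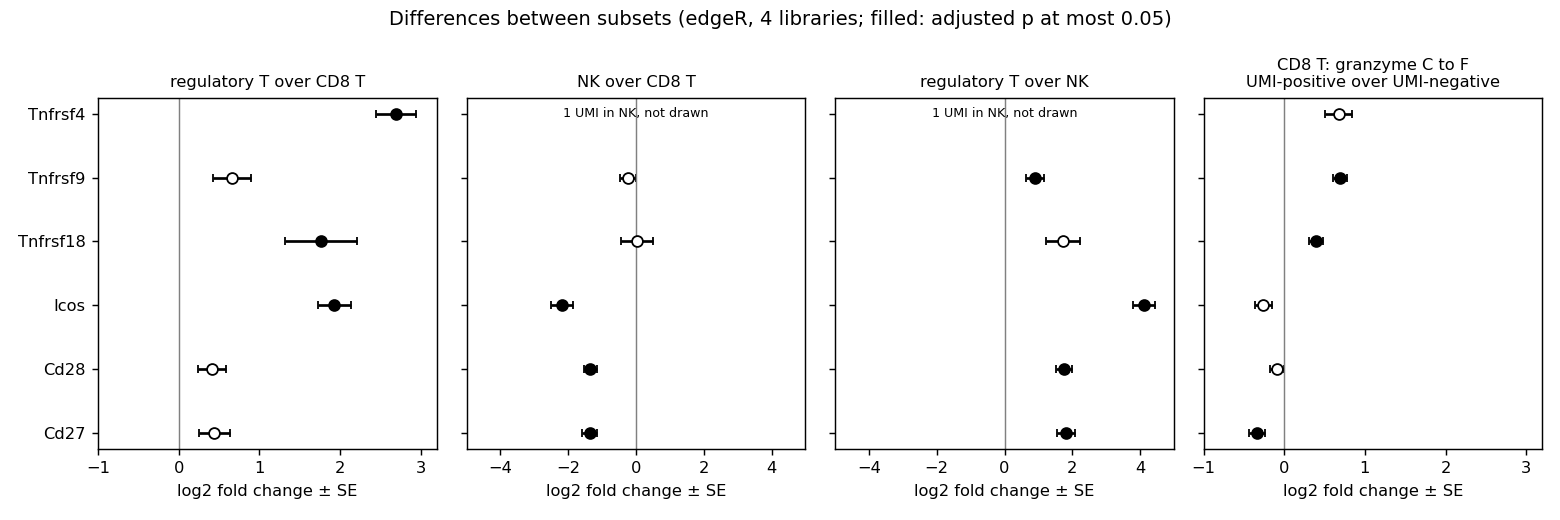
Log2 changes ± SE of 6 receptor genes between gates and between granzyme C to F UMI-positive and UMI-negative CD8 T cells, from edgeR fits on sums per library. In the panel of regulatory T over CD8 T cells all 6 lie above 0, and Tnfrsf4 (2.69), Icos (1.93) and Tnfrsf18 (1.76) passed the threshold.

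Counted per cell, the same order was visible. To make cells of unequal depth comparable, each was thinned to 3900 UMIs, a number that every kept cell reached, and shares carry exact Clopper-Pearson 95% intervals for counting error. Tnfrsf4 was detected in 93.1% of regulatory T cells (83.3 to 98.1), in 36.4% of CD8 T cells (33.6 to 39.4), in 1.14% of NK cells (0.0288 to 6.17) and in 0.552% of macrophages (0.354 to 0.821). Before thinning these shares were 98.3%, 55.4%, 1.14% and 1.27%. The NK share of Tnfrsf4 came from 1 cell, and its interval includes the macrophage share.

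Icos was detected in 79.3% of thinned regulatory T cells, 36.3% of CD8 T cells and 6.82% of NK cells, against 0.184% of macrophages. For Tnfrsf18 the shares were 82.8%, 50.3%, 43.2% and 1.29% in the same order, and for Tnfrsf9 74.1%, 65.6%, 60.2% and 1.91%. The intervals of CD8 and NK cells overlapped for these TNF receptors (Tnfrsf9 62.7 to 68.4 and 49.2 to 70.5). Those of Cd27 overlapped too (50.3 to 56.3 and 31.6 to 53.0). Cd28 was detected in 58.6%, 56.9%, 25% and 1.06%, and Cd27 in 58.6%, 53.3%, 42.0% and 0.806%, and the intervals of regulatory T and CD8 T cells overlapped for both (Cd28 44.9 to 71.4 and 53.9 to 59.9).

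**Figure D4:**
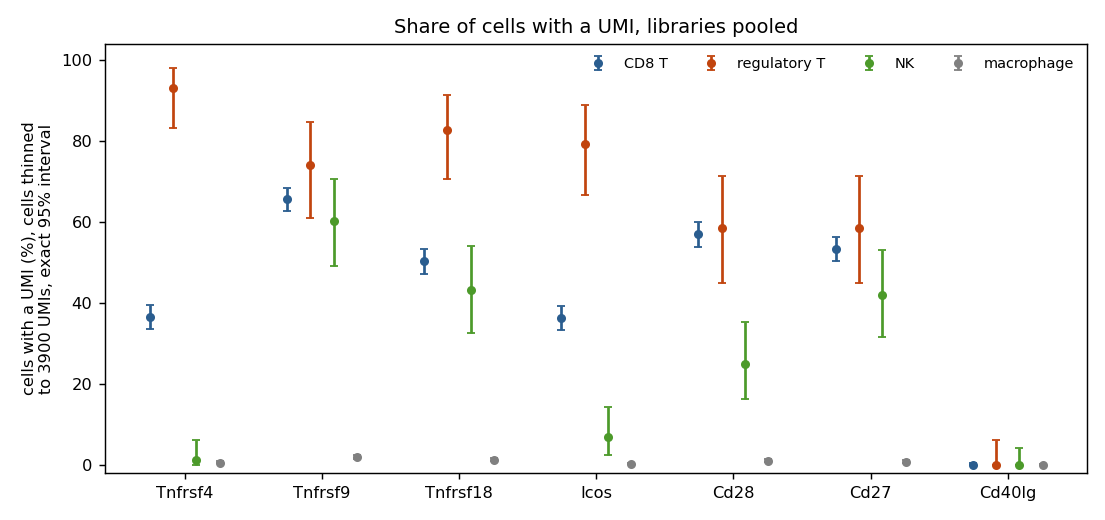
Share of cells with at least 1 UMI of each gene after thinning every cell to 3900 UMIs, in 4 gates with the libraries pooled, and exact 95% intervals. The share for Tnfrsf4 runs from 93.1% of regulatory T cells to 1.14% of NK cells, while that for Tnfrsf9 lies between 60.2% and 74.1% in the 3 lymphocyte gates.

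A regulatory T cell had a median of 5 of the 7 members detected after thinning, a CD8 T cell 3 and an NK cell 2. At least 4 members were detected in 77.6% of regulatory T cells, 36.9% of CD8 T cells and 7.95% of NK cells. Within the CD8 gate, members differed in how unevenly the cells carried them. Before thinning, Tnfrsf4 had no UMI in 484 of 1084 CD8 T cells and up to 29 in others, and the 10% of cells with most held 49.5% of its UMIs. For Cd28 the top 10% held 29.5%, for Cd27 31.2%, for Tnfrsf9 37.5%, for Tnfrsf18 37.9% and for Icos 39.3%.

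Some pairs were found together in CD8 T cells more often than the product of their separate shares. Tnfrsf4 and Tnfrsf9 were both detected in 28.7% of thinned CD8 T cells, where the product is 23.9%. Tnfrsf4 and Tnfrsf18 were both detected in 23.6%, where the product is 18.3%, and Tnfrsf9 with Tnfrsf18 in 36.2% against 33.0%. Icos with Cd28 (23.0% against 20.6%), Tnfrsf4 with Cd27 (21.5% against 19.4%) and Tnfrsf18 with Cd27 (28.8% against 26.8%) were also above the product. Tnfrsf4 with Icos (12.2% against 13.2%) and with Cd28 (20.9% against 20.7%) stayed near the product. Tnfrsf9 was below it with Cd28 (35.2% against 37.3%) and slightly below it with Icos (23.2% against 23.8%). These are descriptions over cells pooled from 4 libraries that differ in level, with no test.

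CD8 T cells were next divided by granzymes C to F (Gzmc, Gzmd, Gzme and Gzmf), cytotoxic proteases of strongly stimulated effector cells: 430 cells had at least 1 of their UMIs and 654 had none. Of the 6 members, 2 were called higher in the granzyme-positive cells, Tnfrsf9 (1.62-fold) and Tnfrsf18 (1.31-fold), and 1 lower, Cd27 (0.792-fold). In either direction 3.19% of all 7503 genes tested were called. Granzyme-positive cells were deeper, with median UMIs of 9863 to 13128 per cell against 7159 to 8018, and the part of depth in the split was not tested.

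Free RNA could place a granzyme UMI in a cell that does not make it. In the macrophage gate 2.11%, 2.18%, 5.69% and 10.1% of cells of S1 to S4 had at least 1 of these UMIs, at a median of 7195 UMIs per cell against 8886.5 in the CD8 gate, where the shares were 30.8%, 23.3%, 46.8% and 66.5%. Both gates had their highest share in S4. At least 3 of these UMIs were found in 0.115% of macrophages and in 28.3% of CD8 T cells. With positive cells taken from 3 UMIs, a split added after the data were seen, the same 3 members were called in the same directions: Tnfrsf9 (log2 change 0.85, adjusted p = 2.55e-12), Tnfrsf18 (0.49, adjusted p = 0.00018) and Cd27 (-0.36, adjusted p = 0.0188).

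Tnfrsf9 measured 500, 412, 568 and 562 CPM in the granzyme-positive cells of S1 to S4 and 298, 320, 286 and 362 CPM in the negative cells. All 4 positive values exceeded all 4 negative values, by 1.29-fold to 1.98-fold within a library. Its log2 change of 0.69 ± 0.08 (adjusted p = 1.33e-06) was called in 13 of 13 alternatives. After thinning, 79.3% of granzyme-positive and 56.6% of negative cells had a Tnfrsf9 UMI. The NF-κB and AP-1 matches shown above belong to this gene, and whether they bear on the difference was not tested.

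Tnfrsf18 measured 230, 191, 255 and 359 CPM in granzyme-positive and 174, 151, 179 and 294 CPM in negative cells. Both sets were highest in S4 and overlapped across libraries, yet the positive cells were higher within each library. The log2 change was 0.39 ± 0.09 (adjusted p = 0.00498), and the call was lost with DESeq2 (0.139), without S3 (0.0999) and without the library block (0.732).

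Tnfrsf4 measured 203, 218, 253 and 283 CPM against 131, 118, 118 and 272 CPM. In S4 the granzyme-negative cells were almost level with the positive ones (ratio 1.04), while in the other libraries the ratio reached 2.14. The log2 change of 0.67 ± 0.16 missed the threshold (adjusted p = 0.0789), and it was called in 7 of 13 alternatives, among them without S2 (0.58, adjusted p = 9.49e-05) and without S4 (0.90, adjusted p = 6.16e-10).

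Cd27 measured 179, 138, 201 and 193 CPM in granzyme-positive and 178, 199, 245 and 288 CPM in negative cells. It was lower in the positive cells of 3 of 4 libraries and level in S1. The log2 change was -0.34 ± 0.10 (adjusted p = 0.0475), a call lost in 7 of 13 alternatives, among them without S2 (0.185), S3 (0.162) and S4 (0.166) and with DESeq2 (0.693). Icos was lower in the positive cells of all 4 libraries and not called (log2 change -0.26 ± 0.10, adjusted p = 0.205), and Cd28 differed in no common direction (-0.09 ± 0.09, adjusted p = 0.704, interval -0.27 to 0.09).

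Of the lists, 1 of 4 tested ligand genes was called higher in granzyme-positive cells, Cd70 (log2 change 1.09 ± 0.29), which encodes the ligand of CD27. The receptor's call was lower, as given above. Cd2 (-0.46) and Crtam (-0.67) were lower among 9 tested other receptors. Of 6 inhibitory receptors Havcr2 was higher (0.50) and Cd160 lower (-0.50), and of 26 signalling genes none was called.

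The comparison of Adar1-null with control tumours addressed how loss of Adar1 in the tumour cells relates to the infiltrate. In CD8 T cells, Tnfrsf4, Tnfrsf9, Tnfrsf18 and Cd27, the 4 members of the TNF receptor family, were each lower in S1 and S2 than in S3 and S4, and none of the 6 members was called. By edgeR 31 of 9133 genes, 0.339%, were called in this comparison, 737 had an unadjusted p under 0.05, and DESeq2 called 32 genes and none of the members. Without overlap and lower in Adar1-null, as for these 4, were 12.6% of all genes tested.

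Tnfrsf4, at 157 and 148 CPM in Adar1-null and 194 and 280 CPM in control CD8 T cells, had a mean of 152 ± 6.70 against 237 ± 61.1 CPM (SD, n = 2). The log2 change was -0.71 ± 0.17 (unadjusted p = 0.00259 by edgeR's quasi-likelihood test, adjusted p = 0.187). Tnfrsf18 was at 194 and 163 against 221 and 342 CPM (-0.73 ± 0.25, adjusted p = 0.548). The high value of S4 set much of both changes: without S4 they were -0.40 and -0.37 (adjusted p = 0.145 and 0.212), and without S3 they were -0.97 and -1.02 and were called (adjusted p = 2.74e-08 and 6.55e-09).

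Tnfrsf9 was at 371 and 347 against 443 and 511 CPM (-0.48 ± 0.12, adjusted p = 0.134). Leaving out S3 made it a call (-0.59, adjusted p = 0.000969), and leaving out S1 made calls of Tnfrsf4 and Tnfrsf18 (adjusted p = 0.00307 and 0.000432). With no low-count filter these 3 genes were called with the 4 libraries in place. Cd27 was at 178 and 181 against 220 and 217 CPM, the tightest pairs of the 4 (-0.35 ± 0.11, adjusted p = 0.285).

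Icos (102 and 117 against 141 and 98.4 CPM) and Cd28 (183 and 211 against 231 and 205 CPM) had overlapping groups, with log2 changes of -0.19 ± 0.15 and -0.22 ± 0.12. Of 49 tested genes of the 4 pathway lists none was called. Beside these values stand others that moved with genotype in the CD8 gate: granzyme-positive cells made up 30.8% and 23.3% in Adar1-null and 46.8% and 66.5% in control libraries, and the melanoma markers summed to 355 and 607 CPM against 245 and 136 CPM. The fibroblast markers Col1a1, Col1a2 and Col3a1 summed to 129 and 75.4 CPM in Adar1-null and to 1.91 and 4.0 CPM in control libraries, from 1.79% to 5.15% of the cells of a library. Neutrophil markers were at 30.4 CPM in S4, in 26.0% of its CD8 T cells, and at 0.390 to 1.53 CPM in the other libraries. The part of these values in the genotype differences was not tested, apart from the comparison by granzyme fraction and the limit on melanoma markers.

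**Figure D5:**
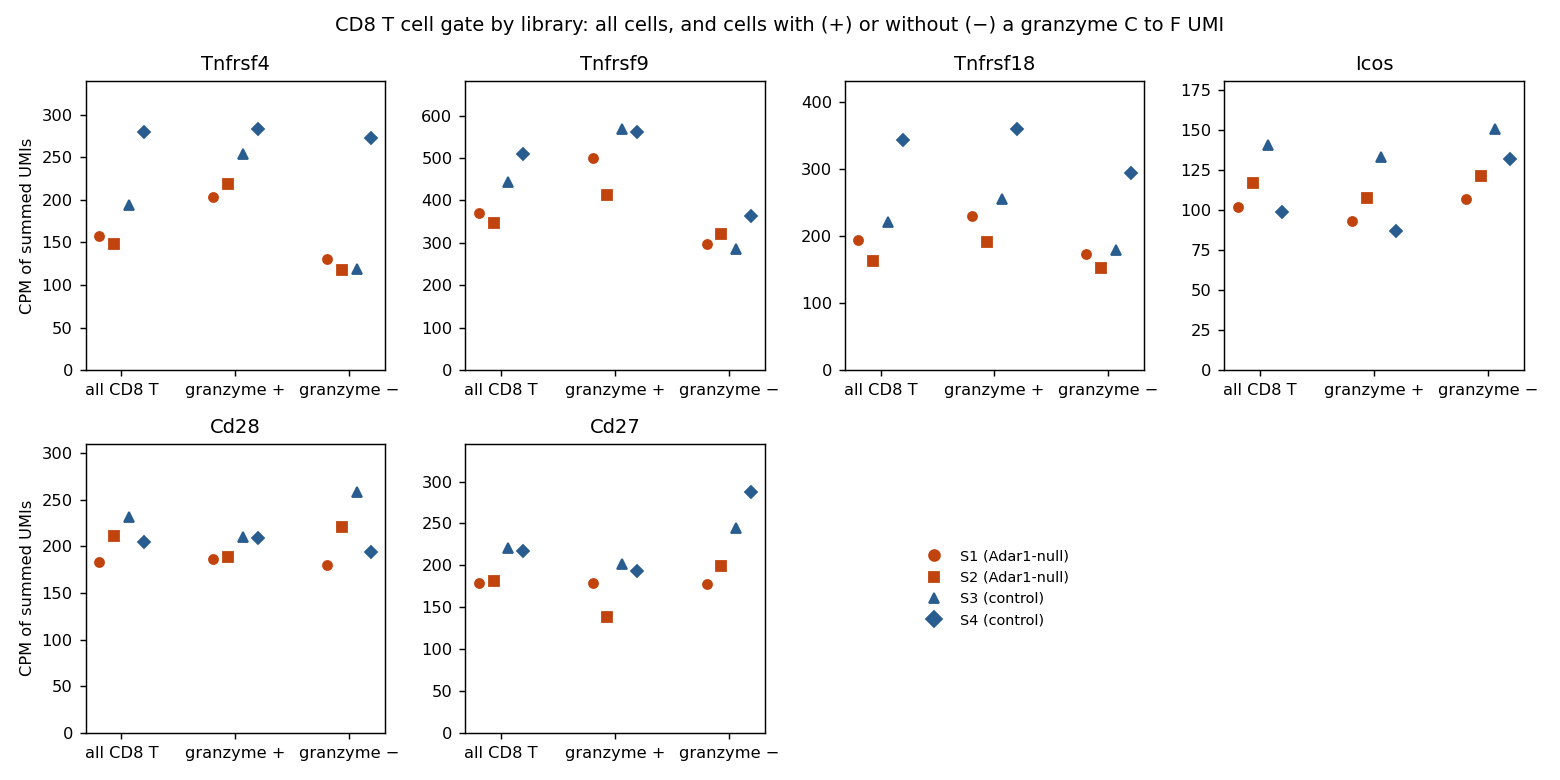
CPM of summed UMIs per library in all CD8 T cells and in their granzyme C to F UMI-positive and UMI-negative fractions, with the axis from 0. Tnfrsf4, Tnfrsf9, Tnfrsf18 and Cd27 of both Adar1-null libraries lie below both control libraries in all CD8 T cells, and Tnfrsf4 and Tnfrsf9 of the granzyme-negative fraction overlap.

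Since the granzyme-positive share differed between libraries and Tnfrsf9 and Tnfrsf18 differed between the fractions, each fraction was compared by itself, a comparison added after the data were seen. In granzyme-positive cells 0 of 6 members were called by edgeR, where 0.0268% of genes were called, 357 genes had an unadjusted p under 0.05 and DESeq2 called none. Of the 6, 5 (all but Icos) were lower without overlap, as were 14.2% of all genes, with log2 changes from -0.18 (Cd28) to -0.58 (Tnfrsf18). With positive cells taken from 3 UMIs, Tnfrsf4 moved from -0.38 to -0.17 and Tnfrsf9 from -0.33 to -0.21, and none was called. In granzyme-negative cells 0 of 6 were called, where 0.670% of genes were, 716 had an unadjusted p under 0.05 and DESeq2 called 22 genes and no member. Tnfrsf18, Icos and Cd27 were lower without overlap, as were 13.9% of all genes.

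Tnfrsf18 was thus lower in Adar1-null libraries in both fractions, by -0.58 ± 0.18 in positive and -0.60 ± 0.22 in negative cells (adjusted p = 0.786 and 0.396). Tnfrsf9 differed by -0.33 ± 0.15 in positive cells and by -0.14 ± 0.15 in negative cells, where 298 and 320 CPM in Adar1-null overlapped 286 and 362 CPM in control. Cd27 of granzyme-negative cells, at 178 and 199 against 245 and 288 CPM, had a log2 change of -0.57 ± 0.15 (adjusted p = 0.0987). Tnfrsf4 of granzyme-negative cells was at 131 and 118 against 118 and 272 CPM, so its log2 change of -0.69 ± 0.53 rested on S4 and was -0.000456 without it. Without S3, Tnfrsf18 was called in both fractions (adjusted p = 0.00107 and 2.68e-07), and Tnfrsf4 and Cd27 in the negative cells (2.64e-11 and 0.000481).

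In regulatory T cells the genotypes were not tested by themselves, since S3 and S4 held 9 cells each, under the minimum of 10 set for that test. The values of Tnfrsf4, Tnfrsf9, Tnfrsf18, Cd28 and Cd27 overlapped between genotypes. Icos alone did not overlap, with 474 and 521 CPM in Adar1-null against 424 and 355 CPM in control (mean 498 ± 33.7 and 390 ± 49.0, SD, n = 2), and 16.8% of the 1496 genes above the filter were higher without overlap in this gate. For a test, a broad gate was added after the cell numbers were seen, which held 50, 31, 28 and 15 cells. It required at least 2 of Foxp3, Ikzf2, Il2ra and Ctla4 detected and at most 1 Cd8 UMI, so cells without Foxp3 could enter. In the CD8 gate Ctla4 was detected in 58.1% to 72.4% of a library's cells, Ikzf2 in 43.3% to 58.4% and Il2ra in 19.0% to 31.3%. The part of CD8 T cells in the broad gate was not tested. Mean Tnfrsf4 was 945 CPM in it and 1286 CPM in the regulatory T gate.

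In the broad gate 0 of 6 members and 0 of 3668 genes (0%) were called by edgeR, and 209 genes had an unadjusted p under 0.05. DESeq2 was not run on it. Icos was again the 1 member without overlap, at 335 and 356 CPM against 299.8 and 299.6 CPM, while 18.0% of all genes were higher without overlap. Its log2 change was 0.21 ± 0.23 (adjusted p = 0.976, interval -0.25 to 0.67). The largest change of the 6 was that of Tnfrsf9, at 0.29 ± 0.30, and that of Cd27 was -0.13 ± 0.29.

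In NK cells 0 of the 4 members tested were called by edgeR, and 0 of 2353 genes (0%), with 65 at an unadjusted p under 0.05; DESeq2 also called 0, with 19. Tnfrsf4 and Icos were under the filter on low counts. Icos, with 18 UMIs in this gate, was also higher in both Adar1-null libraries than in both control libraries. With no low-count filter 2 members did not overlap, as did 3031 of 11623 genes in either direction. Of the 4 members tested, Tnfrsf18 was the 1 without overlap, at 342 and 268 CPM in Adar1-null and 228 and 43.2 CPM in control. Of all genes above the filter, 18.6% were higher without overlap. The log2 change of Tnfrsf18 was 0.99 ± 0.62 (adjusted p = 0.999). The value turned on 1 library: without S4 it was 0.30 (adjusted p = 0.997), and without S3 it was 2.72 and called (adjusted p = 0.00173). The melanoma markers of the NK gate, at 55.4, 1395, 17.9 and 1521 CPM, did not follow genotype. Tnfrsf9 (0.33 ± 0.38), Cd28 (-0.04 ± 0.42) and Cd27 (0.03 ± 0.49) had overlapping groups.

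Whether the genotype change differed between subsets was tested by an interaction term, with a block for each library. Between regulatory T and CD8 T cells no member was called by edgeR, where 4 of 8779 genes (0.0456%) were, 367 had an unadjusted p under 0.05 and DESeq2 called 0. All 6 members had positive values, Tnfrsf9 0.83 ± 0.28 (adjusted p = 0.768), Tnfrsf18 0.72 ± 0.29, Tnfrsf4 0.71 ± 0.30, Icos 0.67 ± 0.35, Cd28 0.46 ± 0.37 and Cd27 0.31 ± 0.37. The median over all genes tested was itself 0.16 with this scaling and 0.05 with DESeq2, where Tnfrsf9 was at 0.74. Without S3, Tnfrsf4 was called (1.58, adjusted p = 0.000594), and without S4 its value was -0.06.

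Between NK and CD8 T cells, an interaction added after the data were seen, no member was called by edgeR, where 7 of 9206 genes (0.0760%) were, 288 had an unadjusted p under 0.05 and DESeq2 called 0. Icos had the highest value, 2.29 ± 0.83, from 18 UMIs in NK cells. Tnfrsf9 was at 0.80 ± 0.38, Cd27 at 0.36 ± 0.51 and Cd28 at 0.15 ± 0.50. Tnfrsf4, with 1 UMI in NK cells, was at -4.50 ± 3.87. Tnfrsf18 had an interaction of 1.70 ± 0.44 (adjusted p = 0.161), since it was higher in Adar1-null NK cells and lower in Adar1-null CD8 T cells. It was called without S3 (3.81, adjusted p = 1.18e-07) and with melanoma markers limited to 0.2% of a cell's UMIs (1.56, adjusted p = 0.0419), and was 0.56 without S4. These interactions share the CD8 gate.

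Across the 12 sums of 3 gates and 4 libraries, the genes most like each member were named by Pearson's r of log2 CPM among 2812 genes, as a description over profiles that share libraries. The profile of Tnfrsf4 was most like those of Matk (r = 0.986), Cd5 (0.980) and Cd6 (0.974). Cd28 was most like Tnfrsf4 (0.969), Matk (0.962) and Cd6 (0.951), and Cd27 most like Slc36a3os (0.966), Samsn1 (0.958) and Cd6 (0.948). Icos was most like Sla (0.972), Smpdl3a (0.962) and Foxn3 (0.944).

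Tnfrsf18 was most like Il2ra (0.959), Tnfrsf9 (0.937) and Ikzf2 (0.932), of which Il2ra and Ikzf2 had served as checking markers of regulatory T cells. Tnfrsf9 was most like Snx20 (0.940), Tnfrsf18 (0.937) and Arf3 (0.927). The members thus formed 2 groups by profile: Tnfrsf4, Cd28, Cd27 and Icos had mutual r between 0.82 and 0.97, and Tnfrsf9 with Tnfrsf18 had 0.94, while r across the groups was 0.58 to 0.72. The first group holds the members called lower in NK than in CD8 T cells, so the grouping is not independent of that comparison. The neighbours Tnfrsf4 and Tnfrsf18 had an r of 0.67, and the NK gate, where 1 was near absent and the other present, was part of it.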

How the data were processed

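UMI counts per gene and cell, whole numbers without normalization, were deposited by the authors as 1 matrix for the 4 libraries. The mouse build mm10, Cell Ranger and Seurat 2.2.0 are named, without their roles, per the submitters' processing notes. Which Cell Ranger version, annotation and cell filters were applied is not given in the sources used here. No barcode had fewer than 3961 UMIs. Library names in the barcodes show the group and carry no replicate number.

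Kept were 8677 barcodes having 500 or more detected genes and no more than 10% mitochondrial UMIs, and 108 cells with a scrublet score of 0.1 or more (scanpy 1.11.5, expected rate 0.02) were removed. Gates also required at most 1 UMI in all of a set of macrophage markers that includes Csf1r, Cd14 and Adgre1, and melanoma markers under 1% of UMIs. T cell gates required at least 2 Cd3 UMIs. Free RNA was not corrected for. UMIs were summed per library and gate, since cells are not replicates, and given as CPM of that sum (totals of 67587 to 3645171 UMIs). Tests used edgeR 4.0.16 (R 4.3.3) with TMM scaling, its default filter on low counts, robust quasi-likelihood fitting and Benjamini-Hochberg adjusted p-values over all genes tested. Gate genes were left out. The library was a block between gates. A gate with under 10 cells in a library was not tested between genotypes by itself, a minimum not applied to the interactions. An exact permutation test of 2 against 2 libraries cannot go below p = 0.333 and was not used. The fits were checked on simulated counts. DESeq2 1.42.0, other filters, gates and scalings, and leaving out each library were the alternatives. Named are all members, list genes that passed the test (up to 5 per list and comparison) and the 3 most alike genes per member. The members, lists and gates were chosen with earlier results of these data known. Intervals on shares and UMI ratios are exact at 95% and cover counting error only, and the limit given for a count of 0 is 3 counts of the total. Intervals on log2 changes are the value ± 2 SE, which can be narrower than a 95% interval with so few libraries.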

Additional observations from a re-analysis of the deposited data

Results flagged for a closer look

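Migratory dendritic cells (83 cells with Ccr7 and at least 2 Fscn1 UMIs, without Cd3) belonged to no comparison and carried 3 TNF receptor genes in every library above every library of the macrophage gate. The mean over the 4 libraries was 253 CPM for Tnfrsf18 (284, 343, 174 and 210 in S1 to S4), 178 CPM for Tnfrsf4 (197, 157, 198 and 162) and 78.4 CPM for Tnfrsf9 (45.8 to 124 over the libraries), while the macrophage means were 3.33, 1.91 and 6.46 CPM. Before thinning, 66.3% of these cells had a Tnfrsf18 UMI, 50.6% a Tnfrsf4 UMI and 28.9% a Tnfrsf9 UMI, at a median of 5792 UMIs per cell against 7195 in macrophages. Cd28 and Cd40lg had no UMI in them, which allows a share of up to 3.61% of cells (3 of 83), and Cd27 and Icos had 5 and 7 UMIs. The 3 genes were not tested in this gate.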

How the results depend on the processing

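Of 695 log2 changes of members under alternatives, 612 kept their direction and their side of the threshold, 20 kept the direction and lost the call, 35 gained a call and 28 turned direction, none of the last from a called value. The cause of each change was not tested. In NK over CD8 T cells Tnfrsf18 (0.02) was -0.044 with DESeq2, -0.19 with no low-count filter, -0.20 with equal cell numbers, -0.013 with no library block, -0.29 without S1, -0.24 without S2, -0.013 without S3 and 0.53 without S4. Tnfrsf9 there ranged from -0.45 without S1 to 0.025 without S4. Cd27 in regulatory T over CD8 T cells was -0.032 with the broad gate.

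Between genotypes, Icos ranged from -0.42 without S4 to 0.070 without S3 in CD8 T cells, and from -0.43 to 0.17 in granzyme-positive ones. Tnfrsf9 in granzyme-negative cells was 0.013 with stricter gates, 0.027 with equal cell numbers, and -0.32 without S3 to 0.045 without S4. In NK cells Tnfrsf9 was -0.18 with equal cell numbers and -0.080 without S4 to 0.91 without S3, Cd28 was 0.059 with the melanoma limit, and Cd27 was -0.011 with DESeq2, -0.019 with no filter, -0.058 with stricter gates, and -0.24 without S4 to 0.48 without S3. The regulatory T by genotype interaction was -0.063 without S4 to 1.58 without S3 for Tnfrsf4, and -0.031 for Cd28 with equal cell numbers. The NK interaction was -5.47 without S4 to 0.97 without S3 for Tnfrsf4, which had 1 UMI in NK cells. It was -0.13 and -0.67 for Cd28 with stricter gates and equal cell numbers, and for Cd27 -1.23 with equal cell numbers and -0.40 without S2 to 0.92 without S3.

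The number of members called or, for the regulatory T genotype values, not overlapping moved by over 1.5 times as follows. For genotype in CD8 T cells it was 3 with no low-count filter. For genotype in regulatory T cells it was 4 with no exclusion of doublets and foreign markers and 2 with equal cell numbers. For the granzyme comparison it was 1 with no library block. For the interactions it was 2 (regulatory T, no exclusion) and 1 (NK, melanoma limit). Smaller moves were 2 to 4 for regulatory T over CD8 T cells (3), 4 to 6 for regulatory T over NK cells (5) and 2 to 4 for the granzyme comparison (3). With stricter gates S4 held 1 regulatory T cell.

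The number of all genes called for genotype in CD8 T cells (31) was 234 with no filter, 12 with stricter gates and 18 with the melanoma limit. In NK cells (0) it was 4 with no filter. In granzyme-positive cells (2) it was 25 with no filter and 0 with DESeq2, stricter gates, the melanoma limit or positive cells from 3 UMIs. In granzyme-negative cells (53) it was 22 with DESeq2, 156 with no filter, 5 with stricter gates, 24 with no exclusion, 0 with equal cell numbers and 13 with the melanoma limit. For regulatory T over CD8 T cells (513) it was 949 with no filter, 252 with stricter gates and 212 with equal cell numbers. For NK over CD8 T cells (248) it was 583 with no filter and 102 with equal cell numbers, and for regulatory T over NK cells (494) 240 with stricter gates and 297 with equal cell numbers. For the granzyme comparison (239) it was 66 with DESeq2, 395 with no filter, 383 with positive cells from 3 UMIs, 107 with equal cell numbers and 41 with no library block. For the regulatory T interaction (4) it was 0 with DESeq2 and stricter gates and 19 with no exclusion, and for the NK interaction (7) 0 with DESeq2, 2 with no filter, 33 with stricter gates and 11 with the melanoma limit.

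Leaving out each library in turn, members called ranged from 0 to 3 for genotype in CD8 T cells, 0 to 1 in NK cells, 0 to 1 in granzyme-positive and 0 to 3 in granzyme-negative cells. They ranged from 2 to 4 for regulatory T over CD8 T cells, stayed at 4 for NK over CD8 T cells, and ranged from 4 to 6 for regulatory T over NK cells, 1 to 3 for granzymes and 0 to 1 for both interactions. Members not overlapping in regulatory T cells numbered 3 to 4, a lone library being easier to separate. All genes called ranged from 95 to 242 (CD8 genotype), 1 to 21 (NK genotype), 27 to 60 (granzyme-positive genotype), 57 to 419 (granzyme-negative genotype), 300 to 484 (regulatory T over CD8), 125 to 233 (NK over CD8), 286 to 427 (regulatory T over NK), 128 to 267 (granzymes), 3 to 16 (regulatory T interaction) and 3 to 35 (NK interaction). With 1 library left in a genotype, that library is assumed to vary like the others.

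No paired analysis was possible because the library names carry no replicate numbers. The broad gate, the melanoma limit of 0.2%, the limit of 3 granzyme UMIs and the fractions by granzyme in the genotype comparison were chosen after seeing the data. Depth limits the regulatory T and NK gates, where a library held as few as 67587 and 108221 UMIs.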
